A study of Mus musculus with 23 samples.

Results

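The 6 genes of the voltage-gated sodium channels of neurons, Scn1a, Scn2a, Scn3a, Scn8a, Scn2b and Scn3b, were followed in RNA sequencing of mouse brain. They were taken by gene symbol, and all 6 were found among 18578 genes and were among the 17118 tested. The 23 libraries came from male C57BL/6J mice that were wild type (WT) or heterozygous (HT, called heterotype in the labels) for Grin2b-C456Y, an allele of the gene for the GluN2B subunit of the NMDA receptor. Mice either received foot-shock, a stressor given as an electric current to the feet, or served as controls. This gave 6 libraries each of WT control, HT control and HT shock, and 5 of WT shock. The labels give an age of postnatal day 17 and the series text speaks of adult mice, and neither names the brain region or the time after the shock. Nothing in the labels ties each library to an animal of its own, so the p-values cover library-to-library spread, part of which may be technical.

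Voltage-gated sodium channels open when a neuron is depolarised and carry the inward current that starts and propagates the action potential. Each channel holds a large pore-forming alpha subunit, which conducts sodium and carries the voltage sensors, and smaller beta subunits, which alter gating and surface expression and act as adhesion molecules. In the brain the alpha subunits are concentrated at the axon initial segment and the nodes of Ranvier, and variants in their genes are known causes of epilepsy and other developmental disorders in people. Scn1a encodes Nav1.1, a main alpha subunit of fast-spiking inhibitory neurons. Scn2a encodes Nav1.2 of excitatory neurons and immature axons, Scn3a encodes Nav1.3, which is highest before and around birth, and Scn8a encodes Nav1.6 of the mature initial segment and node. Scn2b encodes the beta-2 subunit, which is joined to the alpha subunit by a disulfide bond, and Scn3b encodes beta-3, which binds it without one.

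All 6 are protein-coding genes, placed here on the build GRCm38 with the GENCODE M21 annotation. Scn3a, Scn2a and Scn1a lie in one cluster on chromosome 2. Scn3a (ENSMUSG00000057182) spans 65457118 to 65567627 on the minus strand, Scn2a (ENSMUSG00000075318) spans 65620771 to 65767447 on the plus strand, and Scn1a (ENSMUSG00000064329) spans 66270778 to 66440840 on the minus strand. Scn8a (ENSMUSG00000023033) lies on chromosome 15, from 100869858 to 101045938 on the plus strand. Scn3b (ENSMUSG00000049281, 40269217 to 40291618) and Scn2b (ENSMUSG00000070304, 45117782 to 45130070) lie on the plus strand of chromosome 9. The longest annotated transcripts of the alpha genes were 8386 bases (Scn1a), 8935 (Scn2a), 9560 (Scn3a) and 11436 (Scn8a), and those of the beta genes were 4656 (Scn2b) and 4150 (Scn3b). Over the genes tested the median was 3013 bases, and each alpha gene stood above the 95th percentile of length (95.6, 96.4, 97.2 and 98.6 in the same order). GC content was 43.3% in Scn1a, 43.4% in Scn2a, 42.1% in Scn3a and 50.8% in Scn8a, against a median of 49.9%.

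The sequence upstream of a start site was listed for 4 of the 6 genes (RefSeq, GRCm38.p6), and Scn3a and Scn3b had no entry. The 250 bases before the RefSeq starts of Scn1a (chr2:66440838-66441087, minus strand) and of Scn2a (chr2:65620519-65620768, plus strand) are shown because these genes of the chromosome 2 cluster had near-equal genotype differences (given further on). Scn3a lies nearer to Scn2a than Scn1a does. They read 5′ to 3′ along the gene, with capitals marking matches on either strand to the TATA box (TATAAA), the CCAAT box, the GC box (GGGCGG) or the E-box (CANNTG).
Scn1a: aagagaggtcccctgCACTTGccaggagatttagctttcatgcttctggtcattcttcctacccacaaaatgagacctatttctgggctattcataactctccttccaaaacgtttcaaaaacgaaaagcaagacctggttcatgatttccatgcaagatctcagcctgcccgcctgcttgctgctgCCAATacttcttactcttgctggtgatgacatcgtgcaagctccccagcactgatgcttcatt
Scn2a: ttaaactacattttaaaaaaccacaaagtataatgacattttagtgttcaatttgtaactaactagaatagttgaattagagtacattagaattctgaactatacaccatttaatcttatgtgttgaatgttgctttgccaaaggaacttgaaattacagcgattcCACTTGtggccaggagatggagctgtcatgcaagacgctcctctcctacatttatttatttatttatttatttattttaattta
Both windows hold the letters CACTTG, a form of the E-box, which begins 235 bases before the start in Scn1a and 84 bases before it in Scn2a. Scn1a also holds 1 CCAAT, beginning 63 bases before its start. The E-box matched in 66.2% and CCAAT in 33.8% of the 32851 promoter windows of this length, so both matches are common. The windows of the members differed in composition. GC content was 46.8% with 4 CpG in Scn1a, 29.6% with 2 CpG at this start of Scn2a, 38.4% with 1 CpG in Scn2b and 68.0% with 30 CpG at the first start of Scn8a, against medians of 52.4% and 6 CpG. Scn2a and Scn8a each have another listed start, whose windows both had a GC content of 53.2%, and the one of Scn2a holds TATAAA (in 12.4% of windows). These matches describe letters and were not tested for binding.

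Values are the normalized counts that the authors deposited. Normalized counts summed to 30.98 M to 32.57 M (M, mega) in a library, a scaled total that says nothing of reads, so the depth is unknown. Fold changes are on the scale log2(normalized count + 1), with a standard error (SE) and a p-value from limma that is adjusted by Benjamini-Hochberg over all 17118 genes, and a gene is called at an adjusted p below 0.05. On the first principal component of all genes HT control replicate 6 stood apart, at 31.3, beyond the HT shock libraries (11.4 to 26.0), while the rest of its group ranged from -12.7 to 5.17 and WT from -18.5 to 1.63. Results that rest on it are given with and without it. Grin2b itself had a log2 difference of -0.21 in HT against WT averaged over treatments (limma adjusted p = 0.0209). After the correction for transcript length and GC content described further on it had -0.10 (adjusted p = 0.120) and was not called. Markers of neurons were high in every library. The summed level of 8 pan-neuronal genes ranged from 199855 to 216875 in WT and from 203521 to 221481 in HT libraries. In bulk tissue fewer cells of a type and less RNA per cell cannot be told apart.

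Levels of different genes were compared per kb of the longest transcript. Among the 6 members and Scn4b, Scn2b was first in 23 of 23 libraries, and Scn3a was last in 23 of 23. Averaged over all libraries, the normalized count per kb was 2076 ± 83.3 (SD, n = 23) for Scn2b, 1493 ± 286 for Scn4b, 1158 ± 150.0 for Scn2a, 1074 ± 86.5 for Scn8a, 873 ± 43.0 for Scn3b, 775 ± 82.8 for Scn1a and 150.0 ± 26.8 for Scn3a. Neighbours from Scn4b to Scn1a changed places between libraries. Scn2a stood above Scn8a in every WT library, with a ratio of Scn8a to Scn2a of at most 0.989 in WT control and 0.964 in WT shock. In HT control and HT shock the ratio reached 1.02 and 1.06. The difference between these 2 genes was not tested. The order depends on the transcript taken as the length. With the median annotated transcript in its place Scn8a stood at 1736 per kb, above Scn4b and Scn2a. Of the 4 alpha genes together, per kb of the longest transcript, Scn2a made up 36.6% ± 1.19 (SD, n = 23), Scn8a 34.1% ± 1.22, Scn1a 24.6% ± 0.825 and Scn3a 4.72% ± 0.417. By the median annotated transcript Scn8a (1736 per kb) would have a larger share than Scn2a (1190).

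**Figure D1:**
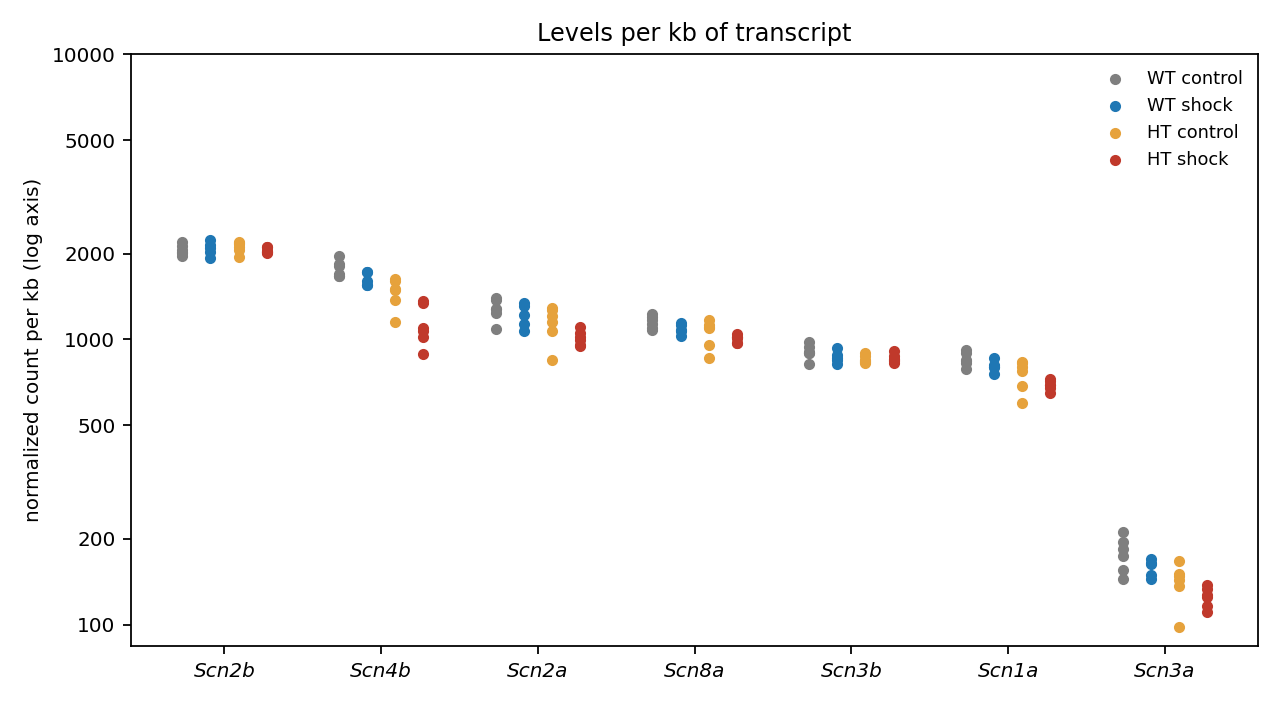
Normalized count per kb of the longest transcript (y axis, log scale) for the 6 members and Scn4b, with 1 dot per library, coloured by group. Scn2b stands above the others in every library, Scn3a lies below all others, and the genes from Scn4b to Scn1a overlap.

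The main question was what the Grin2b allele changed. Averaged over control and shocked mice, the 4 alpha genes were lower in HT than in WT, by 8.3% to 21.1%, and neither beta member was called. Thus 4 of 6 members were called lower, where 8.62% of all genes tested were called lower and 14% in either direction. The median log2 difference of the 4 alpha genes was -0.21 and that of all genes 0.00. The longest 10% of genes, which hold all 4 alpha genes, had 31.0% called lower and a median of -0.10. After a correction for transcript length and GC content 1 of 6 members was called (given further on). A difference between the alpha and beta genes as classes was not tested.

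Scn3a had the largest difference of the 6. Its normalized counts ran from 1379 through a median of 1710 to 2021 in WT control, were 1626, 1555, 1572, 1428 and 1388 in WT shock, and ran from 941 through 1393 to 1596 in HT control and from 1064 through 1206 to 1314 in HT shock. Each HT shock library was below all WT libraries, whereas HT control overlapped both WT groups. Of all genes 4.82% had HT shock wholly below WT shock, and the share for both WT groups was not computed. The averaged log2 difference was -0.34 ± 0.07 (SE, limma adjusted p = 0.00515), or 21.1% lower. The call held in each of the 23 fits that left out 1 library, where adjusted p reached at most 0.0115. Without HT control replicate 6, 4 of 6 members were again called lower, where 7.28% of all genes were.

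Scn1a, the alpha gene of fast-spiking inhibitory neurons, ran from 6628 through a median of 7075 to 7723 normalized counts in WT control. Its WT shock libraries had 6850, 7201, 6705, 6330 and 6694. The HT control libraries ran from 5024 through 6596 to 6973, and the HT shock libraries from 5447 through 5792 to 6089. HT shock again lay wholly below both WT groups, and 9 of the 12 lowest libraries were HT. Of all genes 4.82% had HT shock wholly below WT shock. No such share was computed for WT control or for the 12 lowest libraries. The averaged log2 difference was -0.20 ± 0.04 (SE, limma adjusted p = 0.00551), or 13.2% lower.

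Scn2a, the main alpha gene of excitatory axons, ran from 9736 through 11387 to 12496 normalized counts in WT control. Its WT shock libraries had 10844, 12036, 11736, 10116 and 9551, so replicate 5 was below the highest HT shock library. The HT control libraries ran from 7569 through 10521 to 11529, and the HT shock libraries from 8485 through 9009 to 9881. The groups overlapped, with 9 of the 12 lowest libraries from HT, a count not set against all genes. The averaged log2 difference was -0.22 ± 0.06 (SE, limma adjusted p = 0.0209), or 13.9% lower. The averaged calls of Scn1a and Scn2a held in each of the 23 fits without 1 library, with adjusted p up to 0.0128 and 0.0424.

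Scn8a, the gene of the mature initial segment, ran from 12321 through 13183 to 13991 normalized counts in WT control and had 12205, 12884, 13086, 12371 and 11788 in WT shock. It ran from 9850 through 12600 to 13349 in HT control and from 11105 through 11591 to 11963 in HT shock. The HT shock libraries lay below all WT control libraries and overlapped WT shock by its lowest library. The share of all genes with HT shock wholly below WT control was not computed. The averaged log2 difference was -0.13 ± 0.04 (SE, limma adjusted p = 0.0313), or 8.3% lower. This call was lost when any one of 6 libraries was left out (replicate 5 of HT control, 2 of HT shock, 2 and 4 of WT control, and 2 and 3 of WT shock), with adjusted p up to 0.0607.

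The beta-2 gene Scn2b ran from 9152 through 9511 to 10230 normalized counts in WT control, had 9443, 9778, 10369, 9970.5 and 9010 in WT shock, and ran from 9040 through 9961 to 10190 in HT control and from 9322 through 9466 to 9811 in HT shock. The groups overlapped throughout. Its averaged log2 difference was 0.00 (95% interval -0.05 to 0.06, limma adjusted p = 0.949), so that a fall as large as that of Scn1a or Scn2a lay outside the interval. The beta-3 gene Scn3b ran from 3399 through 3737 to 4078 in WT control, had 3522, 3656, 3879, 3583 and 3408 in WT shock, and ran from 3439 through 3499 to 3709 in HT control and from 3432 through 3535 to 3783 in HT shock. Its groups overlapped as well, and the averaged log2 difference was -0.05 (95% interval -0.11 to 0.01, adjusted p = 0.221).

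**Figure D2:**
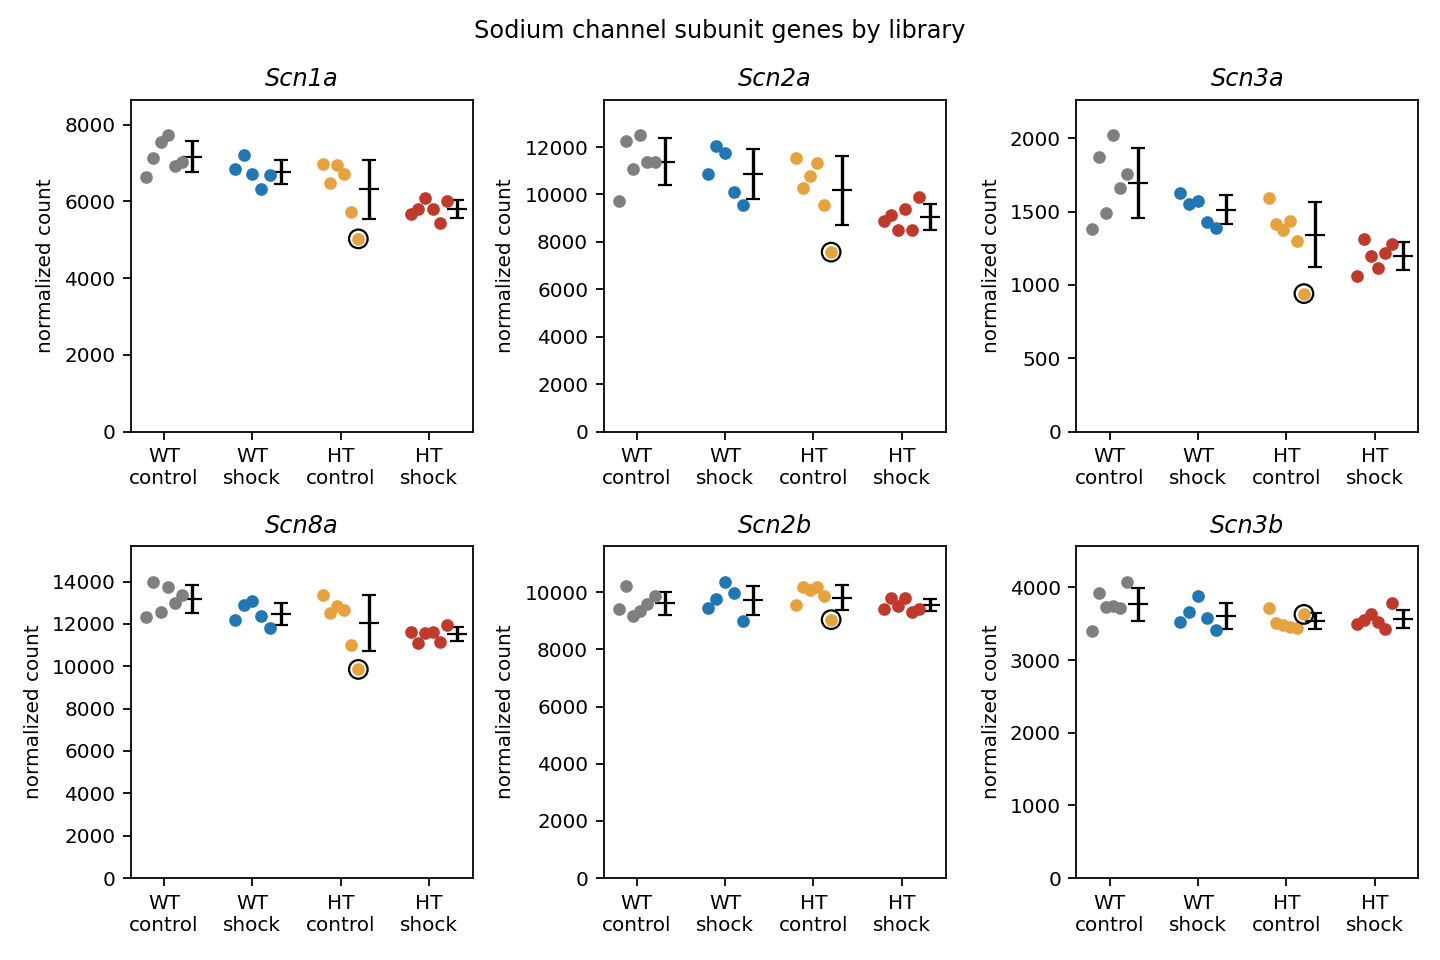
Normalized counts of the 6 genes (y axes, from 0) in each library of the 4 groups, with the group mean ± SD as black bars beside the dots and HT control replicate 6 ringed. The 6 HT shock libraries of Scn1a and Scn3a sit below all WT libraries, the ringed library is the lowest of its gene in the 4 alpha panels, and Scn2b and Scn3b show no separation of groups.

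Shares of the alpha pool are given for Scn3a and Scn8a. Scn3a made up 5.11% ± 0.422 (SD, n = 6) of the alpha total per kb in WT control, 4.85% ± 0.210 (n = 5) in WT shock, 4.54% ± 0.283 (n = 6) in HT control and 4.42% ± 0.351 (n = 6) in HT shock. The share of Scn8a was 33.3% ± 0.939, 33.4% ± 0.975, 34.2% ± 0.895 and 35.5% ± 0.752 in the same order. The ratio of Scn8a to Scn2a, each per kb of the longest transcript, was 0.906 ± 0.0443 in WT control, 0.901 ± 0.0559 in WT shock, 0.929 ± 0.0508 in HT control and 0.996 ± 0.0480 in HT shock. It ranged from 0.836 to 0.964 in WT shock and from 0.946 to 1.06 in HT shock, so these groups overlapped. No test was made of shares or ratios, and both depend on the transcript taken as the length.

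Comparing shocked mice of both genotypes, Scn1a and Scn3a fell in HT. Thus 2 of 6 members were called lower, where 5.33% of all genes were called lower and 9.28% in either direction. In the longest 10% of genes, which hold the 4 alpha genes, 20.6% were called lower. After the correction for length and GC content no member was called (given further on). In Scn1a and Scn3a the groups did not overlap, as in 8.57% of all genes, 4.82% with lower values in HT shock. Scn3a differed by -0.34 ± 0.10 on the log2 scale (SE, limma adjusted p = 0.0396), and Scn1a by -0.22 ± 0.06 (adjusted p = 0.0324). Scn2a had a log2 difference of -0.26 ± 0.09 (adjusted p = 0.0569) and Scn8a one of -0.12 ± 0.06 (adjusted p = 0.177), neither of which passed. Scn2b (-0.02 ± 0.04) and Scn3b (-0.02 ± 0.04) had adjusted p of 0.718 and 0.848. The calls rest on all shocked libraries being present. The call of Scn1a was lost without any one of 9 of the 11 shocked libraries (all but HT shock 6 and WT shock 4) and that of Scn3a without any one of 10 of 11 (all but HT shock 6), with adjusted p up to 0.0831 and 0.0916. Scn2a was called without HT control replicate 6 (-0.26 ± 0.06, adjusted p = 0.00846, where 9.98% of all genes were called lower), a library that enters this comparison only through the shared estimate of spread, and likewise without HT control 1, HT shock 6 or WT control 1.

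Among control mice no member was called, as no gene was, 0% of those tested. The alpha genes still had lower values in HT control than in WT control. The log2 differences were -0.34 ± 0.10 for Scn3a (limma adjusted p = 0.331), -0.19 ± 0.06 for Scn1a (0.340), -0.17 ± 0.08 for Scn2a (0.448) and -0.14 ± 0.05 for Scn8a (0.394), with Scn3b at -0.09 ± 0.04 (0.426) and Scn2b at 0.03 ± 0.04 (0.754). At an unadjusted p under 0.05 limma counted 5 of the 6 members, where it counted 11.1% of all genes. Without HT control replicate 6 these values were smaller for the alpha genes, at -0.24 for Scn3a, -0.13 for Scn1a, -0.09 for Scn2a and -0.08 for Scn8a, and 3 members had an unadjusted p under 0.05, where 6.16% of all genes did. The call of a gene in shocked and not in control mice does not show that the genotype difference depends on shock. The interaction of genotype and shock called no member and no gene, 0% of those tested. Its log2 values were -0.09 ± 0.12 for Scn2a, -0.03 ± 0.09 for Scn1a, 0.00 ± 0.14 for Scn3a, 0.02 ± 0.08 for Scn8a, -0.05 ± 0.05 for Scn2b and 0.07 ± 0.06 for Scn3b (limma adjusted p of 0.822 or more). At an unadjusted p under 0.05 limma counted 0 members in it and 6.43% of all genes. The genotype comparisons and the shock comparisons share libraries and are not independent of each other.

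The other question was what foot-shock changed within a genotype. In wild-type mice no member was called and no gene was, 0% of those tested, and limma counted 0 members and 3.72% of all genes at an unadjusted p under 0.05. The log2 differences of WT shock from WT control were -0.15 ± 0.10 for Scn3a, -0.08 ± 0.06 for both Scn1a and Scn8a, -0.07 ± 0.09 for Scn2a, -0.06 ± 0.04 for Scn3b and 0.02 ± 0.04 for Scn2b, each with an adjusted p of 0.998. The groups overlapped for all 6, and did not overlap for 0.374% of all genes.

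In HT mice no member was called with all libraries, nor was any gene, 0% of those tested. The log2 differences of HT shock from HT control were -0.16 ± 0.08 for Scn2a (limma adjusted p = 0.396), -0.15 ± 0.10 for Scn3a (0.482), -0.11 ± 0.06 for Scn1a (0.400), -0.06 ± 0.05 for Scn8a (0.634), -0.04 ± 0.04 for Scn2b (0.629) and 0.01 ± 0.04 for Scn3b (0.903). Limma counted 0 members and 13.7% of all genes at an unadjusted p under 0.05. HT control replicate 6 decided this comparison. It was the lowest of all 23 libraries for each alpha gene, with 5024 normalized counts of Scn1a, 7569 of Scn2a, 941 of Scn3a and 9850 of Scn8a. Without it 3 of 6 members were called lower after shock, where 7.58% of all genes were called lower and 12.1% in either direction. These were Scn1a (-0.18 ± 0.05, limma adjusted p = 0.0152), Scn2a (-0.24 ± 0.06, adjusted p = 0.0190) and Scn3a (-0.25 ± 0.08, adjusted p = 0.0372), while Scn8a had -0.11 ± 0.04 (adjusted p = 0.0707). The interaction without this library was -0.17 ± 0.09 for Scn2a (adjusted p = 0.400), and no member was called in it, where 0.00584% of all genes were called lower.

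Transcript length and GC content moved with the genotype difference across all genes. Over 17106 genes with an annotation the averaged log2 difference had a Spearman rho of -0.37 with the length of the longest transcript and of 0.40 with GC content, which describes genes of one set of libraries and is not a test. In the longest 10% of genes (1711 genes of 6539 bases or more, which hold all 4 alpha members) the median averaged difference was -0.10, 81.2% were negative and 31.0% were called lower. The middle 50% of these genes ran from -0.18 to -0.03. Scn1a, Scn2a and Scn3a lay below that range and Scn8a inside it. In HT shock against WT shock the same genes had a median of -0.14 with 20.6% called lower.

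Each library was therefore also corrected for a smooth curve in transcript length and GC content. The averaged log2 difference was then -0.21 ± 0.04 for Scn3a (limma adjusted p = 0.00462), which was still called. For Scn1a it was -0.09 ± 0.03 (adjusted p = 0.0541), for Scn2a -0.10 ± 0.03 (0.0577) and for Scn8a -0.04 ± 0.02 (0.193). Thus 1 of 6 members was called lower, where 3.75% of all genes were. In HT shock against WT shock the corrected values were -0.17 ± 0.06 for Scn3a (adjusted p = 0.0955), -0.07 ± 0.04 for Scn1a (0.334), -0.11 ± 0.04 for Scn2a (0.164) and -0.00 ± 0.03 for Scn8a (0.968), so that no member was called, where 2.33% of all genes were called lower. The part of length and GC content in the members' differences was not tested beyond these values.

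**Figure D3:**
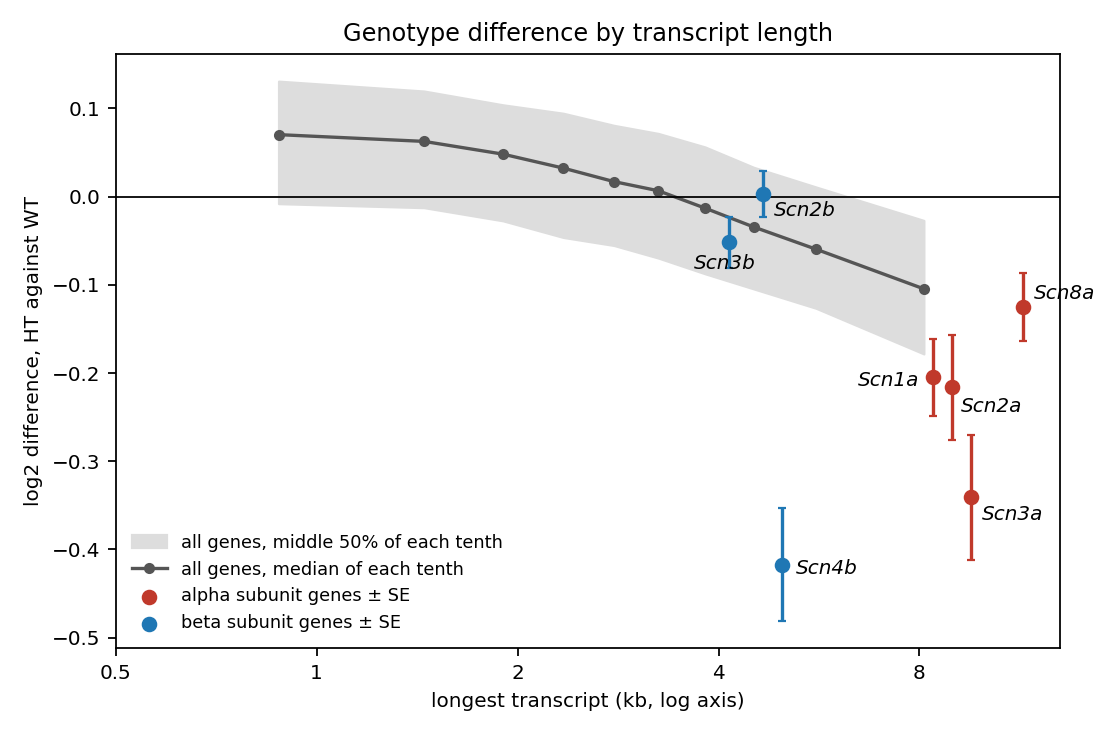
Averaged log2 difference of HT from WT (y axis) against the longest annotated transcript (x axis, kb, log scale), with the medians of all genes in 10 bins of length as a line, the middle 50% as a band, and the 6 members and Scn4b as dots ± SE. The line falls from short to long genes, Scn2b and Scn3b lie in the band, and Scn1a, Scn2a, Scn3a and Scn4b lie below it or beyond its end at lower values.

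**Figure D4:**
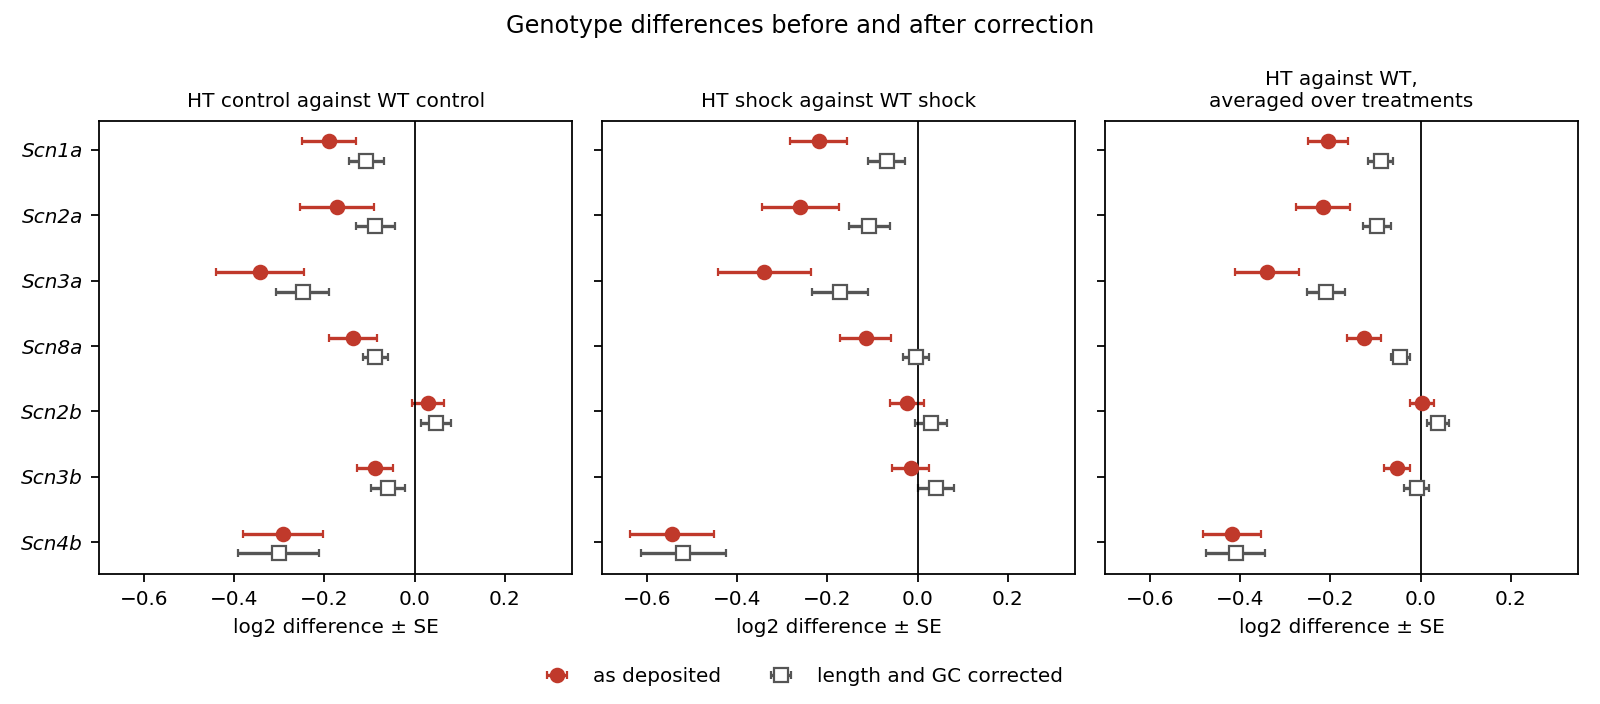
Log2 difference ± SE of HT from WT (x axes) in control mice, in shocked mice and averaged, for the 6 members and Scn4b, as deposited (red dots) and after the correction for length and GC content (open squares). The correction brings Scn1a, Scn2a and Scn8a nearer to 0, leaves Scn3a lower at -0.21 in the average, and hardly moves Scn4b.

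Scn4b encodes beta-4, a subunit tied to resurgent sodium current and abundant in striatal projection neurons, and it fell in HT. WT control had a mean of 8842 ± 585 normalized counts (SD, n = 6), WT shock 8135 ± 439 (n = 5), HT control 7264 ± 888 (n = 6) and HT shock 5635 ± 925 (n = 6). The log2 difference was -0.42 ± 0.06 in the average (limma adjusted p = 0.00115) and -0.54 ± 0.09 in HT shock against WT shock (adjusted p = 0.0037), where the groups did not overlap. After the correction for length and GC content it was -0.41 and -0.52, both called. The summed level of 8 striatal projection neuron markers ranged from 22895 to 25967 in WT control, 22391 to 24000 in WT shock, 19510 to 23246 in HT control and 14370 to 22480 in HT shock, and its part in the result was not tested.

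Other sodium channel genes were also measured. Nalcn, the sodium leak channel, had a mean of 3438 normalized counts in all libraries. In the average it fell by 0.13 on the log2 scale (limma adjusted p = 0.0393) and was at -0.03 after the correction. Scn7a (mean 114), Scn9a (mean 142) and Scn10a (mean 12.4) were low and had averaged log2 differences of -0.18, -0.26 and -0.32 with adjusted p of 0.0651, 0.123 and 0.368. Scn11a, with a mean of 9.3, was under the filter, and the muscle gene Scn4a was not analysed here.

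Partners of the channels at the axon initial segment and node formed a list of 19 genes, all tested. In the average 8 were called lower and 3 higher, where 8.62% of all genes were called lower and 5.42% higher. Those with the smallest p were Kcnq3 (-0.33 ± 0.06, limma adjusted p = 0.00218), a subunit of the M-current potassium channel that shares the ankyrin-G anchor, Cntnap2 (-0.18 ± 0.04, 0.00595), an adhesion protein beside the node, the potassium channel genes Kcna2 (-0.19 ± 0.04, 0.0103) and Kcna1 (-0.38 ± 0.09, 0.0125), Ank3 (-0.20 ± 0.05, 0.0135), which encodes the ankyrin-G scaffold that holds sodium channels, and the spectrin gene Sptan1 (0.10 ± 0.03, 0.0150). The list's median was -0.09. After the correction 4 were called lower, namely Kcnq3, Kcna1, Kcna2 and Ank3, and 3 higher, namely Sptan1, the spectrin gene Sptbn4 and the adhesion gene Nrcam, where 3.75% of all genes were called lower and 2.94% higher.

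In HT shock against WT shock 7 partners were called lower and 1 higher, where 5.33% of all genes were called lower and 3.95% higher. Kcnq3 (-0.32), Kcna1 (-0.51), Nfasc (-0.17), Cntn1 (-0.19) and Kcna2 (-0.23) fell and Sptan1 rose (0.15), with limma adjusted p from 0.0230 to 0.0303, and the median of the list was -0.12. After the correction 2 lower calls (Kcnq3 and Kcna1) and the higher call of Sptan1 were left, where 2.33% of all genes were called lower and 2.71% higher. In the remaining comparisons no partner was called with all libraries. The smallest p belonged to Kcnq3 (-0.33, adjusted p = 0.221) and Cntnap2 (-0.16, 0.340) between the control groups, to Cntn1 (-0.13, 0.302) and Kcna1 (-0.31, 0.321) in HT shock against HT control and to Nfasc (-0.12) in the interaction. In WT mice Fgf12 had a log2 difference of -0.08. Without HT control replicate 6, 6 partners were called lower and 1 higher in HT shock against HT control, where 7.58% of all genes were called lower and 4.49% higher.

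Of 10 RNA-binding and transcription regulators of channel transcripts, 3 were called lower in the average and 0 higher, where 8.62% of all genes were called lower and 5.42% higher. Rbfox1, a neuronal splicing factor with sodium channel transcripts among its targets, fell by 0.18 on the log2 scale (limma adjusted p = 0.0111). Pum2, a repressor that binds RNA, fell by 0.16 (adjusted p = 0.0132), and Nova1, another neuronal splicing factor, had -0.12 (adjusted p = 0.0234), which became 0.03 after the correction. Of the 3, Rbfox1 alone was called after the correction (-0.15, adjusted p = 0.0156), where 3.75% of all genes were called lower. In shocked mice Rbfox1 was the 1 regulator called (-0.20, adjusted p = 0.0427), where 5.33% of all genes were called lower, and was lost with the correction (adjusted p = 0.0581). With the correction Nova2, named after its values were seen, was called higher in both comparisons (0.07 and 0.12), as were 2.94% and 2.71% of all genes. No regulator was called in the remaining comparisons with all libraries, where the smallest p belonged to Nova1 (-0.16) and Rbfox1 (-0.16) between the control groups, Rbfox3 (0.12) and Rest (-0.25) in HT shock against HT control, Nova1 (-0.09) and Ptbp2 (-0.10) in WT mice, and Rbfox3 (0.13) and Rest (-0.30) in the interaction.

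Within groups the alpha genes varied together. After subtracting each group mean, Scn2a and Scn8a had a Pearson r of 0.907 and a Spearman rho of 0.842 over 23 libraries (permutation within groups, 100000 draws, p adjusted over 15 pairs of members, 0.00015 and 0.0003, the first from the smallest p the draws can give). Leaving out the 2 libraries farthest from the median of Scn2a gave 0.824. The 6 pairs of alpha genes had r from 0.734 (Scn1a with Scn3a) to 0.907, with adjusted permutation p of at most 0.00495, and rho from 0.610 to 0.842, with adjusted p of at most 0.0156. Without HT control replicate 6 these r ran from 0.495 to 0.825, and after the correction for length and GC content from 0.102 to 0.744. Scn2b correlated with Scn8a (r = 0.592, adjusted permutation p = 0.0187, and rho = 0.534, adjusted p = 0.0489) and with Scn2a (r = 0.575, adjusted p = 0.0301, and rho = 0.433, adjusted p = 0.0942). Without the 2 farthest libraries these r were 0.591 and 0.400, without HT control replicate 6 they were 0.398 and 0.379, and after the correction they were 0.361 and 0.368. Scn2b and Scn3b had r = 0.330 (adjusted permutation p = 0.195) and rho = 0.271 (adjusted p = 0.281).

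The genes whose levels followed each member most closely within groups were named from all genes tested, by Pearson r over 23 libraries. For Scn2a these were Slc8a1 (0.98), which encodes a sodium-calcium exchanger, Frrs1l (0.98), an auxiliary protein of AMPA receptors, and Gpr158 (0.97). For Scn8a they were Wdr7 (0.97), Pclo (0.96), the gene of the presynaptic protein piccolo, and Arid1a (0.95). For Scn3a they were Dpp8 (0.93), Hecw2 (0.93) and Dgki (0.92), and for Scn1a Slc24a2 (0.91), Clcn3 (0.91) and Zkscan16 (0.91). The beta genes had lower values. Scn2b was followed by Zcchc2 (0.83), Tbck (0.81) and Ywhag (0.81), and Scn3b by Shank3 (0.81), Znrf1 (0.81) and Gm30122 (0.78). No gene was named for more than one member. These r share the libraries' common variation, and after the correction for length and GC content those of Scn2a were 0.85, 0.92 and 0.87 and those of Scn1a 0.63, 0.74 and 0.43.

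Markers of some other cell types moved with the groups in which the members differed. No listed marker of oligodendrocyte precursors, microglia, endothelial cells, cerebellar neurons, or choroid plexus and ependyma was called in HT shock against WT shock. Of all genes 9.28% were called there in either direction. Summed normalized counts of 7 astrocyte markers ranged from 115681 to 121682 in WT shock and from 100936 to 114312 in HT shock, without overlap, and 1 of the 7 was called lower. Those of 8 oligodendrocyte markers ranged from 230748 to 291422 in WT shock and from 191340 to 238900 in HT shock, and 6 of the 8 were called lower. Markers of 2 further neuron types were lower too. The sum of 5 thalamic neuron markers ranged from 9763 to 10637 in WT shock and from 7444 to 9803 in HT shock. All 5 differences were negative with a median of -0.29 on the log2 scale, and 3 were called lower. Of the 8 striatal projection neuron markers, whose sums stand beside Scn4b, all 8 differences were negative with a median of -0.46, and 5 were called lower. Over all genes 5.33% were called lower in this comparison. Interneuron markers, 8 genes of the cells in which Scn1a is known to act, ranged from 38043 to 39716 in WT shock and from 38948 to 41589 in HT shock, and 6 excitatory neuron markers from 94599 to 106206 and from 99794 to 111017. Both of these sums overlapped between the groups, as did the oligodendrocyte, thalamic and striatal sums. Of the 8 interneuron markers 2 were called higher and 1 lower, with a median log2 difference of 0.11. Of the 6 excitatory neuron markers 2 were called higher and 0 lower, with a median of 0.13. Over all genes 3.95% were called higher. No measured marker was at 0, and the part of these markers in the members' differences was not tested.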

How the data were processed

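Brain mRNA libraries were made with a stranded kit, per the labels. The signal values that the authors deposited are normalized counts with decimals. The submitters' processing notes list Salmon 1.1.0, R 3.6.2, DESeq2 1.26.0 and GRCm38, without roles. Whole reads could not be recovered (per library, 27.3% to 68.7% of low values fell within 0.1 of a multiple of its step), so no count model or counting error was used. Of 24 library columns, 1 matched no sample and was not used. Groups come from the titles, and symbols from Ensembl IDs (18563 of 18578 matched).

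The 17118 genes whose mean reached 10 were fitted on log2(normalized count + 1) with limma 3.58.1 (R 4.3.3), with all 4 groups in one fit, a trend and robust moderation, giving 6 contrasts. This scale understates changes of low genes. The planned design named edgeR for raw counts, which these are not. The length and GC correction subtracts from each library a spline (4 degrees of freedom each) in log transcript length and GC content. The fit was tested on simulated data for HT shock against WT shock. There it recovered 35.3% of log2 changes of 0.25, 71.3% of those of 0.5, 89.3% of those of 1 and 99.3% of those of 2. Each simulated run changed 200 genes, all in HT shock, and drew the noise of each gene independently. In the real libraries genes varied together, so these rates need not hold for them. Named were all members, all other measured sodium channel genes, up to 6 called genes of each further list (or the 2 smallest p), and the 3 genes most correlated with each member. The members and lists were chosen with earlier results of these data known. A few genes that this rule takes in are not reported here. Replicate numbers were not used as pairs in the main fit.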

Additional observations from a re-analysis of the deposited data

Results flagged for a closer look

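In 56 groups of 5 or 6 libraries over 14 sodium channel genes, 3 held a library far from the rest of its group, where chance gives about 1 in 20 groups. None was in a member gene. Scn7a had 134 normalized counts in WT shock replicate 3, with the other libraries of the group between 111 and 117. Scn9a had 267 in WT control replicate 2, with the others between 124 and 163. Scn10a had 21.7 in HT control replicate 6, with the others between 5.35 and 11.1.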

How the results depend on the processing

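Since depth is unknown, the spread between libraries alone sets what could be seen. In HT shock against WT shock 2 members were called, where 5.33% of all genes were called lower (shares of all genes called lower follow each count in parentheses). That count was 4 when the fit held the compared groups alone (9.8%), 4 with library weights (12.1%), and 0 with the length and GC correction together (2.33%), with length alone (2.61%) or with GC alone (3.97%), the last pair chosen after seeing the data. Leaving out 1 library gave 0 to 3 calls there (1.27% to 9.98%), 0 to 3 in HT shock against HT control (0% to 7.58%) and 3 to 4 in the average over treatments (6.2% to 10.6%). The average gave 1 call (Scn3a) with the length and GC correction (3.75%), and HT shock against HT control gave 3 with library weights (9.24%). In the average the differences of Scn1a, Scn2a, Scn3a and Scn8a were negative in all 36 alternatives, and Scn3a was called in each. The replicate number as a block gave 0 calls in HT shock against WT shock by the title numbers (1.39%) and 2 by the library numbers (3.32%), and 3 (5.5%) and 4 (7.79%) in the average. The pairing was checked: libraries with the same number had a median correlation of 0.016 by title and 0.017 by library number. Those with different numbers had 0.0037 and 0.0024. By title 5 of 33 pairs with the same number and 9 of 165 with different numbers were above 0.1. A median near 0 cannot exclude that some libraries with the same number share more than the number.

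Among the sodium channel genes, the differences whose sign turned were not called with all libraries and no correction. Those of Scn8a (-0.12) and Scn7a (-0.16) in HT shock against WT shock were not near 0, and Scn8a was called there with the compared groups alone and with library weights. With the length and GC correction, HT shock against WT shock was 0.030 for Scn2b, 0.042 for Scn3b and 0.017 for Scn7a, HT shock against HT control was 0.014 for Scn8a, and the interaction was 0.038 for Scn1a. With length alone these were 0.040 for Scn2b, 0.032 for Scn3b, 0.032 for Scn8a in HT shock against HT control and 0.035 for Scn1a in the interaction, and Scn8a in HT shock against WT shock was 0.024. With GC alone Scn3b was 0.017 there. With the block by library numbers Scn2b was -0.0029 in the average and Scn3a -0.023 in the interaction, which was -0.0095 with median centring and -0.080 with library weights, where Scn8a was -0.031. Leaving out 1 library moved the interaction from -0.097 to 0.060 for Scn3a, from -0.036 to 0.052 for Scn8a and from -0.093 to 0.0016 for Scn1a. It moved Scn2b from -0.010 to 0.015 in the average and from -0.0085 to 0.042 in WT mice, and Scn3b from -0.0038 to 0.027 in HT mice and from -0.036 to 0.011 in HT shock against WT shock. The cause of these changes was not tested.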
